A study of Mus musculus with 8 samples.

Results

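The nonsensory epithelium of the mouse cochlea was examined at postnatal day 12 (P12) in single-cell RNA-seq libraries of the organ of Corti. Its cells were taken from the 2 libraries labelled Coch P12 by a rule on unique molecular identifiers (UMIs), each of which stands for 1 captured transcript. The members were chosen by their UMI counts of marker genes. A cell was kept with at least 500 detected genes and under 25% mitochondrial UMIs. A kept cell was a member with at least 2 UMIs of Epcam, the epithelial adhesion molecule, none of Ptprc (immune cells) or Pou4f3 (hair cells) and at most 2 of Ocm (outer hair cells). It also had to show fewer than 3 of 7 genes of Deiters and pillar supporting cells (Rbp7, Cep41, Fabp3, Ceacam16, Tectb, Gdf6 and Parm1) and fewer than 3 of 6 genes of Reissner membrane (Vmo1, Crhbp, Lrp2, Dkk2, Rnase1 and Slc26a7). The rule found 99 cells, 61 in replicate 1 and 38 in replicate 2, of 2263 kept cells in these libraries and 6023 in the whole series. The same rule found 313 cells in the 6 later libraries, from 31 to 96 per library, and these served for comparison.

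All 8 libraries came from mice carrying Fgfr3iCre+, Atoh1-HA+, Chrna9-GFP+ and the Rosa26-CAG-loxP-stop-loxP-tdTomato+ reporter. Coch P12 (n = 2) and Coch P33 (n = 1) had no tamoxifen, whereas Coch + Tmx P26 (n = 3) and Coch + Tmx P33 (n = 2) had tamoxifen at P12 and P13, which lets the Cre act in cells that use the Fgfr3 promoter, mainly Deiters and pillar cells. No library of P12 had tamoxifen and only 1 later library lacked it, so age and induction cannot be told apart except against Coch P33. By the study's description of the dissection, the lateral walls were taken off. Nothing in the labels says how many animals a library pooled, so a p-value below measures the spread between libraries.

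The nonsensory epithelium is the sheet of inner sulcus, interdental, Hensen, Claudius and outer sulcus cells on both sides of the organ of Corti. Its cells are coupled by gap junctions of connexin 26 and connexin 30, through which potassium released by hair cells is thought to be recycled, and during development cells of this sheet secrete the collagens and glycoproteins of the tectorial membrane. Hearing in the mouse begins at about P12, when the tall cells of Kolliker organ on the medial side have been giving way to the low inner sulcus epithelium.

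The members held 525610 UMIs in replicate 1 and 432522 in replicate 2, with medians of 6820 and 8898.5 UMIs per cell. No member barcode recurred in another library and no pair of libraries shared more than 3 barcodes. No member was among the barcodes that the doublet caller marked. Replicate 2 carried hemoglobin and glial RNA in cells of other types. The hemoglobin gene Hba-a1 stood at 143 CPM (counts of the gene scaled to the same total of member UMIs in each library) in the members of replicate 1 and 18838 in those of replicate 2, and the myelin gene Mbp at 13.3 and 2929. In immune cells of replicate 2 (Ptprc UMIs, no Epcam UMIs), thinned to 2000 UMIs per cell, Hba-a1 was found in 100% and Mbp in 86.5%, beside 97.4% and 94.7% of the members, so both genes were at background there.

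Checked against genes the rule did not use, the members carried the genes of cochlear nonsensory epithelium. Epyc, an extracellular proteoglycan of the sulcus epithelium, stood at 7684 and 8309 CPM in replicates 1 and 2, and at 228 and 484 in all other kept cells of the same libraries. Lum, a related proteoglycan, stood at 2401 and 2058 CPM in the members and at 89.6 and 127 in the other cells. Gjb2, which encodes connexin 26, had 1033 and 620 CPM, against 186 and 229 in the other cells. Gjb6, which encodes connexin 30, had 373 and 425 CPM in the members. Sox10, a transcription factor of otic epithelium and glia, had 83.7 and 146 CPM. Of 10 hair cell markers, 5 had no UMI in the members (Pou4f3, which the rule sets to 0, Otof, Slc26a5, Tmc1 and Strc), and the summed level of the list was 24.7 and 23.1 CPM. The list also holds Ocm, which the rule limits to 2 UMIs per cell, so its sum is partly set by the rule. Of 6 markers of strial marginal cells, Kcne1, Esrrb and Bsnd had none, and of 6 markers of strial intermediate cells or melanocytes, Tyr, Tyrp1 and Mlana had none. The other 3 of each list were detected. The marginal list, which holds the rule gene Lrp2, summed to 15.2 and 30.1 CPM in the members and 66.1 and 86.4 in other kept cells. The intermediate list summed to 36.1 and 102 CPM in the members, above the 18.4 and 90.7 in other kept cells. The members thus carried genes of nonsensory epithelium, with 1 exception described with the clusters. The contrasts above were with all other kept cells pooled. They do not set the members apart from Deiters and pillar cells, since cells set aside by the genes of those cells also carried Epyc.

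The rule is a cut on continuous counts. Of the members, 4 in replicate 1 and 6 in replicate 2 had exactly 2 Epcam UMIs, and the medians were 12 and 11. Just outside, 42 and 69 cells met the rest of the rule with 1 Epcam UMI, and 28 and 15 cells were left out with exactly 3 supporting genes. Among the members, 20 and 14 showed exactly 2 supporting genes. Among Epcam cells of Coch P12 that met the rest of the rule, 104 were set aside with 3 or more supporting genes (supporting-marker cells), 72 with 3 or more Reissner membrane genes (Reissner-marker cells) and 6 with both.

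The P12 members fell into 4 clusters, found without the rule genes, mitochondrial or hemoglobin genes. Clusters were formed from the same counts that describe them, so their genes are given without a test and the clusters keep numbers. Cluster 1 had 38 cells (23 and 15 in replicates 1 and 2) and was led by Gsn, an actin-severing protein, Fam25c, Rassf6 and Klk8, a secreted serine protease. Gsn stood at 14477 CPM there against 384 in the other members. Cluster 2 had 35 cells (27 and 8) and was led by Fyn, Qpct and Matn4, a matrix protein. Lgals1, a galectin, was found in 100% of its cells at 14750 CPM, against 1214 in the other members. Cluster 3 had 14 cells (5 and 9) and was led by Slc26a4, the anion exchanger pendrin, Ucma, Bpifb3 and Degs2. Cluster 4 had 12 cells (6 and 6) and was led by Bglap, Ibsp and Dmp1, all bone matrix genes, then Rarres1, Car3 and Emilin2.

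Summed over both replicates, epithelial genes were graded over these clusters. Epcam ran from 3960 CPM in cluster 1 through 1359 and 732 in clusters 2 and 3 to 284 in cluster 4, and Gjb2 from 1399 through 1094 and 514 to 140. In replicate 2 alone, clusters 2 and 3 were nearly level, with Epcam at 669 and 707 CPM and Gjb2 at 651 and 680. Epyc had another order in the summed counts, with 3172 CPM in cluster 1, 10895 in cluster 2, 17424 in cluster 3 and 1573 in cluster 4. The order of Epyc differed between replicates. In replicate 1 it was highest in cluster 2, at 13974 CPM against 6317 in cluster 3. In replicate 2 it was highest in cluster 3, at 23149 CPM against 4960 in cluster 2. Tspan8, a tetraspanin, was found in 100% of cluster 1 cells at 742 CPM and in 34.3% of cluster 2 cells at 82.3 CPM. Cluster 4 went against the label: Col1a2, a collagen of connective tissue, stood at 2623 CPM there and at 67.0, 131 and 70.8 in clusters 1 to 3, and 6 of 10 stromal markers were found in at least 25% of its cells. Its median was 14694.5 UMIs per cell, the highest of the 4 clusters, which ranged from 4951. Whether its cells were single cells was not tested beyond the doublet caller.

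**Figure D1:**
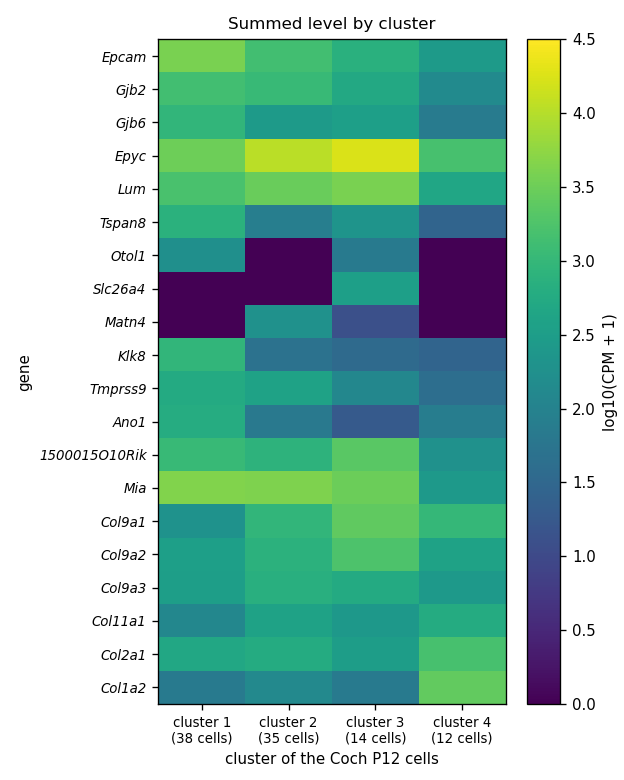
Colour gives log10(CPM + 1) of 20 genes (rows) in the counts summed over the cells of each cluster of the P12 members (columns). Epcam falls from cluster 1 to cluster 4, Slc26a4 is seen in cluster 3 alone, and Col1a2 is high in cluster 4.

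Several genes used to divide this epithelium crossed the clusters. Epyc was found in 73 of 99 members and Slc26a4 in 6, all 6 of which also had Epyc UMIs. Otol1, an otoconial scaffold protein, was found in 21 members and Tspan8 in 63, and 18 had both. Otol1 and Slc26a4 were found together in 2 members. Klk8 was found in 44 members and Matn4 in 15, with 4 members showing both. No member had 2 or more of the cycle genes Mki67, Top2a, Ccnb1, Cdk1, Birc5 and Ube2c. A count of cells with a UMI depends on depth, and a cell without one may still use the gene.

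The first comparison asked how the epithelium at P12 differed from the same cells in later libraries. Counts were summed over the members of each library, and 8422 genes were tested against the mean of the 3 later groups. At an adjusted p under 0.05 in edgeR's quasi-likelihood test, 95 genes were higher at P12 (1.13% of those tested) and 20 lower (0.237%), 115 in all (1.37%). DESeq2 called 82 higher and 43 lower. The 2 P12 libraries did not overlap the 6 later ones for any of these 115 genes, as for 14.3% of all genes tested. The higher genes included bone and connective tissue genes, with Ibsp at the largest difference (9.98), cartilage-type collagens, serine proteases, a chloride channel and a secreted peptide precursor. The lower genes included an S100 protein, a glutathione peroxidase, interferon-induced genes and a prostaglandin synthase. The median log2 difference over all genes tested was 0.05.

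A sum over cells cannot tell a change in the number of cells that use a gene from a change in the level per cell. The count also rested on single libraries. Without Coch P12 replicate 2 it was 23, without Coch + Tmx P26 replicate 1 it was 293, and without Coch + Tmx P33 replicate 2 it was 76.

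Collagens of the tectorial and otoconial matrix list were higher at P12. Of 20 genes listed, 17 were tested and 7 rose at P12 (Col2a1, Col9a1, Col9a2, Col9a3, Col11a1, Col11a2 and Matn4) with none lower. The share called was 41.2%, beside 1.37% of all genes tested. The median log2 difference of the 17 was 2.70, beside 0.05 over all genes. Types II, IX and XI are the fibril collagens of cartilage and of the tectorial membrane. The lists were chosen with earlier results known, so these counts are a description.

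Col2a1, the chain of type II collagen (GRCm38, chr15:97975602-98004724), stood at 573 and 948 CPM in the P12 replicates. Its level was 0 in Coch P33, 26.5, 10.8 and 11.9 in Coch + Tmx P26 and 7.71 and 5.13 in Coch + Tmx P33. Both P12 libraries thus lay above every later one, and the log2 difference was 7.91 (SE 0.52, adjusted p = 1.06e-04). In the other kept cells of Coch P12, which include connective tissue cells, Col2a1 stood at 674 and 762 CPM, close to the members. Thinned to 2000 UMIs, 49.2% and 50.0% of the members had a UMI, against 10.0% and 13.5% of the immune cells, whose median depths before thinning were 5062.5 and 9558 UMIs.

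The type IX chains were more abundant in the members than around them. Col9a1 (chr1:24177589-24252738) stood at 615 and 1528 CPM at P12 and from 17.2 to 162 in the later libraries, a log2 difference of 4.65 (SE 0.59, adjusted p = 0.00561). The other kept cells of P12 had 382 and 455 CPM, the supporting-marker cells 443 and 827, and the Reissner-marker cells 37.8 and 98.0. Col9a2 stood at 556 and 990 CPM against 79.0 to 160 later, and Col9a3 at 483 and 476 against 32.0 to 102. Their log2 differences were 2.58 (adjusted p = 0.00669) and 2.77 (adjusted p = 0.00449). In the P12 members summed over both replicates, Col9a1 was lowest in cluster 1 at 197 CPM and highest in cluster 3 at 2479. Col2a1 and Col11a1 were instead highest in cluster 4, the cluster with the stromal genes, at 1573 and 595 CPM. The other clusters had at most 579 and 390. These highest clusters held in replicate 2 but not in replicate 1. In replicate 1 all of these genes were highest in cluster 2. Col9a1 had 1069 CPM there against 642 in cluster 3. Col2a1 and Col11a1 had 754 and 528 there against 674 and 493 in cluster 4.

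Of the type XI chains, Col11a1 had 375 and 310 CPM at P12 and 15.8 to 64.7 later, with a log2 difference of 2.93 (SE 0.38, adjusted p = 0.00659). Col11a2 had 126 and 338 CPM against 13.7 to 97.0, a difference of 3.01 (SE 0.57, adjusted p = 0.0298). Col11a2 was not called without Coch P12 replicate 2 (adjusted p = 0.299) or Coch + Tmx P33 replicate 1 (0.0511), after thinning (0.0823), or in either alternative that left out cells with stromal markers (0.0966 and 0.0812). Matn4, matrilin 4, had 78.0 and 53.2 CPM against 0 to 13.8, a difference of 2.80 (adjusted p = 0.0485). Its UMIs were few, 64 at P12 and 21 later, and Matn4 was called in 10 of 19 alternatives, and not without either P12 replicate.

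Other genes of the list were not called, which does not show that they were equal between ages. Epyc was not called (0.28, adjusted p = 0.871), with 2229 to 9082 CPM in the later libraries on both sides of the P12 values. Otog, otogelin, had 120 and 57.8 CPM at P12 and 20.6 to 264 later, a log2 difference of 0.13 (adjusted p = 0.960). Tecta, Otop1 and Col5a1 had too few counts to be tested. Oc90, an otoconial protein, had 179 CPM in replicate 1 and 2.31 in replicate 2 and no UMI later, yet it was not called (adjusted p = 0.0725). Its 94 UMIs in replicate 1 came from 3.28% of the cells, while the Reissner-marker cells of that library had 1472 CPM.

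**Figure D2:**
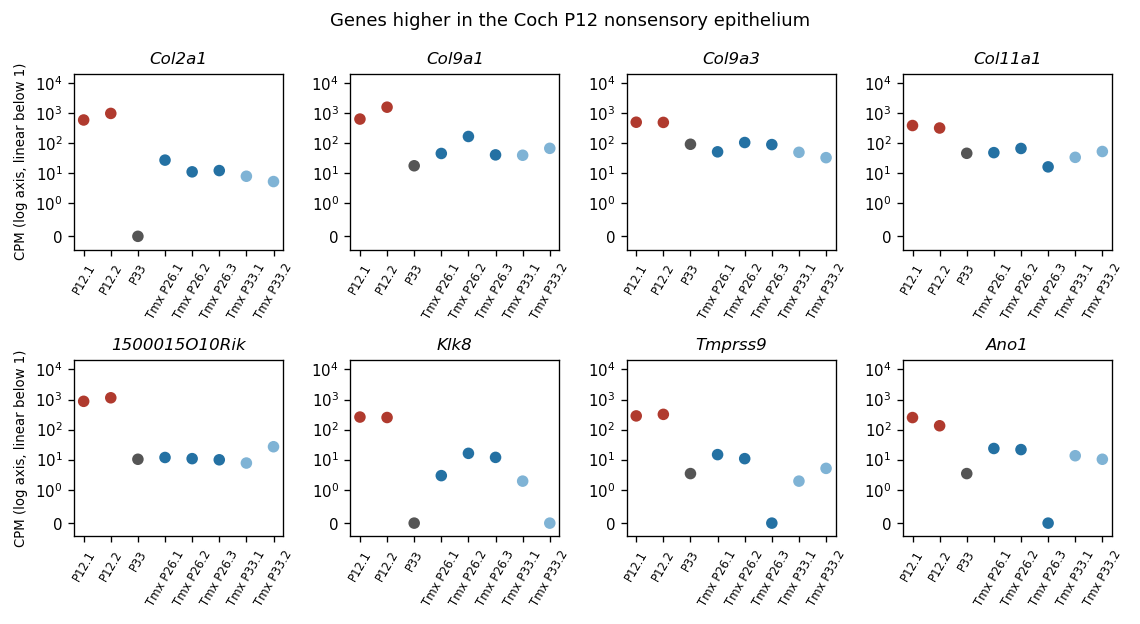
CPM (vertical, log axis that is linear below 1) of 8 genes in the members of each library (horizontal, labelled by age and replicate, Tmx marking tamoxifen). In each panel both P12 libraries (red) lie above Coch P33 (grey), Coch + Tmx P26 (dark blue) and Coch + Tmx P33 (light blue).

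Several further genes were higher at P12. 1500015O10Rik, which encodes the secreted peptide precursor ECRG4 and was chosen after its values were seen, stood at 871 and 1142 CPM. The later libraries held 7.71 to 26.9 CPM, none of them near the P12 values. The log2 difference was 6.20 (SE 0.46, adjusted p = 1.72e-04). Other kept cells of P12 had 37.2 and 57.8 CPM, the supporting-marker cells 160 and 166. In replicate 2, 1 cell held 54.5% of its UMIs, while 62.3% and 60.5% of the members in replicates 1 and 2 had at least 1.

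Klk8 (chr7:43797532-43803826), a secreted serine protease also named neuropsin, stood at 261 and 252 CPM at P12. It was 0 in Coch P33 and in Coch + Tmx P33 replicate 2 and reached 16.2 in the highest later library, so the groups were far apart. The log2 difference was 7.42 (SE 0.60, adjusted p = 2.68e-04), with 1 cell holding 50.4% of the UMIs of replicate 1. Klk8 was mainly a gene of cluster 1, with 913 CPM there and 27.0 to 48.8 in the other clusters.

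Tmprss9 (chr10:80871117-80899495), a membrane-anchored serine protease, stood at 285 and 321 CPM at P12 and from 0 to 14.7 later. The log2 difference was 5.90 (SE 0.56, adjusted p = 0.00101). Unlike Klk8 it was spread over clusters, with 557 CPM in cluster 1 and 387 in cluster 2, where 77.1% of the cells had a UMI. No immune cell of either P12 library had a Tmprss9 UMI after thinning, against 27.9% and 34.2% of the members.

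Ano1 (chr7:144588549-144752026), a calcium-activated chloride channel known from Kolliker organ, stood at 251 and 134 CPM at P12 and from 0 to 23.5 later. The log2 difference was 4.44 (SE 0.62, adjusted p = 0.00700). The supporting-marker cells of P12 had 193 and 297 CPM, so the gene was not confined to the members. It was the 1 gene of the 14 tested in the Kolliker organ list that was called. The purinergic receptor P2rx2 of that list had 426 and 305 CPM at P12 and 81.1 to 274 later (1.04, adjusted p = 0.196).

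Mia, a small secreted protein first known from cartilage and melanoma and chosen here after its values were seen, was among the most abundant called genes. It stood at 3348 and 2948 CPM at P12, from 235 to 609 later, and at 126 and 227 in other kept cells of P12. The log2 difference was 2.61 (SE 0.41, adjusted p = 0.0125). It was found in 90.9% of the members, at 3075 to 4387 CPM in clusters 1 to 3 and 266 in cluster 4. Sparc, a matricellular protein, stood at 6541 and 5195 CPM against 474 to 2910 later (2.53, SE 0.41, adjusted p = 0.0147), with 3361 and 2956 in other kept cells of P12. Sh2d6, with few UMIs, had 59.0 and 43.9 CPM against 0 to 8.82 (5.39, adjusted p = 0.0268).

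Of these genes, 1500015O10Rik, Klk8, Tmprss9, Ano1, Col2a1, Col9a1, Col9a3 and Col11a1 kept their call in all 20 alternative analyses. Col9a2, Sparc and Mia each lost it without Coch P12 replicate 2 (adjusted p = 0.0685 for all 3). Mia lost it also when 1 Epcam UMI was enough. Sh2d6 was called in 11 of 19 alternatives, and not without either P12 replicate (adjusted p = 0.208 and 0.136) or in either alternative on stromal markers (0.0960 and 0.0709).

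The other higher genes included genes of connective tissue and bone. Of the 95 higher genes, 30 stood above the other kept cells of Coch P12 in both replicates, 15 in 1 of them, and 50 in neither. In 30 genes at least 50% of the UMIs of a P12 library came from 1 cell. Col1a2 stood at 554 and 837 CPM in the members, at 1458 and 1468 in other kept cells, and from 1.93 to 94.1 later (5.65, SE 0.68, adjusted p = 0.00449). Emilin2, an elastin-associated matrix protein, had 1119 and 1905 CPM (4.95, adjusted p = 0.00449) against 5684 and 3652 in other kept cells. Otor, an otoraplin secreted in the cochlea, had 824 and 980 CPM (5.11, adjusted p = 0.00449) against 4786 and 2898. In replicate 2, 1 cell of 59075 UMIs with 2 Epcam UMIs held 68.8% of the Emilin2 and 62.0% of the Otor UMIs.

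The bone genes rested on 1 cell. Ibsp, a bone sialoprotein, had 19.0 CPM in replicate 1 and 2215 in replicate 2 and at most 5.78 later (9.98, SE 1.65, adjusted p = 0.0161). Of its 958 UMIs in replicate 2, 936 lay in 1 cell, which had 2 Epcam UMIs and 1 Epyc UMI. The same cell held 74.6% of the UMIs of Dmp1, a dentin matrix protein (6.76, adjusted p = 0.0194). Smpd3 and Kcnk3 (6.21 and 6.76) and the matrix genes Pcolce2, Col3a1 and Itga8 (5.73, 5.46 and 4.73) were also among the genes with the largest differences.

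Stromal RNA was higher in the P12 members than in the later ones. The summed level of 9 stromal markers other than Lum was 839 and 1232 CPM at P12 and 15.4 to 385 later, with Postn and Dpt at 0 in the P12 members. Col1a2, called above, is 1 of these 9 and made up 554 and 837 CPM of the P12 sums. The later sums did not follow age, with 278 CPM in Coch P33 and 15.4 and 41.0 in Coch + Tmx P33. In other kept cells of P12 the sum was 2115 and 2282. When cells with more than 1 of these 9 markers were left out in all libraries, a choice made after seeing the data, 41 genes were called. Of the 30 higher genes above other cells in both replicates, 20 were still called, and of the 50 above them in neither, 26 were tested and 5 called. Col1a2, itself 1 of the 9 markers used to leave cells out, stayed called (3.75). Emilin2, Otor and Ibsp did not (2.32, 2.58 and 5.97). Macrophage markers also summed higher at P12, with 268 and 125 CPM against 30.9 to 84.8. Their part in the other results was not tested.

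The genes lower at P12 fell into smaller groups, and most rested on both P12 libraries: 1 lower gene was called without replicate 1 and 2 without replicate 2. S100a13, a calcium-binding protein that is exported without a signal peptide and was chosen after its values were seen, had the most UMIs of the 20. It stood at 1665 and 1473 CPM at P12 and from 4564 to 10341 later, with a log2 difference of -2.18 (SE 0.33, adjusted p = 0.0108). At P12 its level was 2443 and 2435 CPM in clusters 1 and 2 and 307 and 351 in clusters 3 and 4. It lost its call without either P12 replicate (adjusted p = 0.0704 and 0.117). In the members the summed level of 7 markers of inner phalangeal and border cells was lower at P12 too. It was 12285 and 8862 CPM at P12 and 16282 to 37599 later, and all 7 were detected at P12. Of the 7, S100a1 had the highest level at P12, at 9164, 15319 and 5177 CPM in clusters 1 to 3. The 7 did not all move together: Matn4 was called higher at P12, and Gjb2 was not called (-0.11, adjusted p = 0.960). The part of these markers in the result was not tested.

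Tnnt2, cardiac troponin T, stood at 5.71 and 30.1 CPM at P12 and from 162 to 570 later (-4.45, SE 0.73, adjusted p = 0.0156). Dnase1, a secreted DNA nuclease, had 7.61 and 0 CPM against 37.6 to 416 (-4.90, SE 0.72, adjusted p = 0.00951). Tnnt2 kept its call in 19 of 20 alternatives and Dnase1 in 18, more than the other lower genes that were followed except S100a13, which kept it in 18.

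Ptgds, the lipocalin-type prostaglandin D synthase, had 185 and 157 CPM at P12. Its later levels were widely spread, at 6038 in Coch P33, 576, 3783 and 1086 in Coch + Tmx P26 and 665 and 732 in Coch + Tmx P33 (-3.62, SE 0.70, adjusted p = 0.0321). It kept its call in 12 of 20 alternatives and lost it without Coch P33, either P12 replicate or Coch + Tmx P33 replicate 2. Gpx2, a glutathione peroxidase, had 108 and 76.3 CPM against 198 to 497 (-1.99, SE 0.32, adjusted p = 0.0147). It was the 1 gene called of 25 tested in the glutathione and detoxification list, and lost its call without either P12 replicate (adjusted p = 0.0562 and 0.146).

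Aqp5, a water channel of outer sulcus cells, had no UMI in the P12 members and 7.91 to 85.9 CPM in the later libraries. With a floor of 3 UMIs over both P12 libraries it was at least 9.14-fold lower (adjusted p = 0.0283). The supporting-marker cells of P12 had 10.1 and 14.4 CPM. Of the other outer sulcus and root markers, Slc26a9 and Atp6v0a4 had no UMI at P12 either, while Slc26a4 had 68.5 and 53.2 CPM, against 14.7 to 318 later (-1.04, adjusted p = 0.406). Fzd9, a Wnt receptor, had 13.3 and 18.5 CPM against 51.5 to 142 (-2.53, SE 0.43, adjusted p = 0.0175). Aqp5 was called in 11 of 20 alternatives and Fzd9 in 16, and neither without either P12 replicate.

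Isg15 and Ifit1, both interferon-induced, were at or near 0 at P12. Isg15, a ubiquitin-like protein, had 0 and 2.31 CPM against 16.2 to 67.6 later, and Ifit1, an RNA-binding antiviral protein, had 3.81 and 0 against 21.6 to 73.2. With 1 and 2 UMIs at P12, the pooled ratios of later to P12 were 41.7 (95% counting interval 7.33 to 1660) and 26.5 (7.20 to 221), with adjusted p = 0.0261 and 0.0406. Oasl2 had 20.9 and 6.94 CPM against 56.4 to 148 (adjusted p = 0.0388). Isg15 was called in 13 of 19 alternatives, Ifit1 in 11 of 20 and Oasl2 in 13 of 20, and none of the 3 without either P12 replicate. Of 23 genes tested in the antigen presentation and interferon list, Isg15 and Ifit1 fell and none rose, with a median of -1.19. B2m, the light chain of MHC class I, had 346 and 254 CPM against 543 to 842 (-1.19, adjusted p = 0.0913), and Bst2 had 55.2 and 57.8 against 183 to 768 (-2.56, adjusted p = 0.0869).

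S100a8 and S100a9, calprotectin chains of neutrophils, were lower at P12 as well (-3.67 and -3.42, adjusted p = 0.0345 and 0.0300). They had 5 and 4 UMIs at P12, and were called in 10 of 19 and 8 of 20 alternatives. The list of 6 neutrophil markers includes both genes, so its sum is not separate from these calls. In the same members the sum was 7.61 and 23.1 CPM at P12 and 58.8 to 230 later, and in other kept cells of P12 it was 384 and 522. The part of these markers in the result was not tested. The other lower genes of the largest differences were Alox12e, Hist1h4i, Cyp2d22, Snhg11 and Agr3, whose P12 levels ranged from 0 to 41.9 CPM. In that order they were called in 11 of 20, 13 of 18, 15 of 20, 5 of 20 and 9 of 20 alternatives. Snhg11 was not called in DESeq2 (adjusted p = 0.115).

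**Figure D3:**
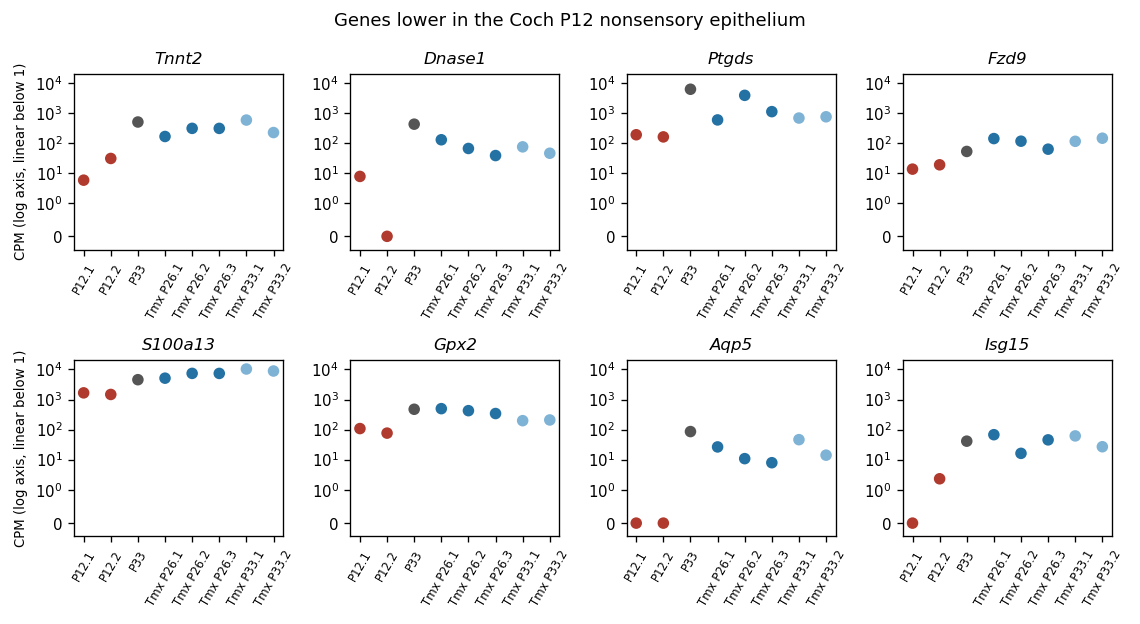
CPM (vertical, log axis that is linear below 1) of 8 genes in the members of each library (horizontal, labelled by age and replicate, Tmx marking tamoxifen). In each panel both P12 libraries (red) lie below Coch P33 (grey), Coch + Tmx P26 (dark blue) and Coch + Tmx P33 (light blue), and Aqp5 is at 0 in both.

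The lists of epithelial junctions and of keratins and epithelial regulators held no call in either direction. Over all genes tested 1.37% were called, so no call in lists of this size does not set them apart. Of 24 tested genes of epithelial junctions, none was called (median -0.40), nor of 19 keratins and epithelial regulators (-0.47). Cldn9, a claudin of cochlear tight junctions, had 506 and 467 CPM at P12 and 245 to 1657 later (-0.66, adjusted p = 0.568). Spint2, a serine protease inhibitor, had 1088 and 939 CPM against 1092 to 1676 (-0.47, adjusted p = 0.528). Of 24 tested genes of gap junctions and ion and water transport, Aqp5 alone was called. Gjb2 had 459 to 1638 CPM in the later libraries, on both sides of the P12 values (-0.11, adjusted p = 0.960). Gjb6 had 432 to 1040, all above the P12 values (-0.98, adjusted p = 0.352).

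Transcription factors of the inner ear gave no call among 27 tested, with a median log2 difference of -0.00. With 1.37% called over all genes tested, this does not set the list apart either. Gata3, needed for sensory epithelium and sulcus formation, had 677 and 386 CPM at P12 and 647 to 1175 later (-0.79, adjusted p = 0.385). Zbtb20, a zinc finger repressor, had 2470 and 1473 CPM against 1611 to 2700, with P12 inside the later range for replicate 1 and below it for replicate 2.

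In the signalling lists, calls were few. None of 19 Notch genes and none of 13 FGF genes was called. Hes1, a Notch target, had 164 and 85.5 CPM at P12 and 138 to 530 later (-1.36, adjusted p = 0.202). Of 27 Wnt genes, Fzd9 was lower and Nkd1, a feedback inhibitor, higher (2.20, adjusted p = 0.0464). Of 16 BMP genes, Fstl1 was higher (2.77, adjusted p = 0.0117). Of 10 thyroid hormone genes, 2 were higher, among them the transporter Slco1c1 (3.50, adjusted p = 0.0196). Nkd1, Fstl1 and Slco1c1 all stood below the other kept cells of P12 in both replicates, and none was called without Coch P12 replicate 2 (adjusted p = 0.408, 0.0685 and 0.200). Nkd1 was called in 10 of 18 alternatives, and not in DESeq2 (0.0780) or with fewer than 3 stromal markers, where its log2 difference was 0.21. Fstl1 was also lost with fewer than 3 stromal markers (0.117).

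The other lists held 4 calls. These were 14.3% of the basement membrane genes tested, 9.09% of the cell cycle inhibitors and D cyclins and 5.00% of the immediate early genes. Over all genes tested 1.37% were called. Of 14 basement membrane genes, Sparc and Col4a5, a type IV collagen chain, rose (median 1.24), and Col4a5 had 81.8 and 46.2 CPM against 6.87 to 17.3 (2.37, adjusted p = 0.0175). Col4a5 was called in 11 of 19 alternatives, and not in DESeq2 (0.119), without either P12 replicate (0.208 and 0.0685) or in either alternative on stromal markers (0.101 and 0.0792). Of 11 cell cycle inhibitors and D cyclins, Ccnd2 rose (4.18, adjusted p = 0.0233), and of 20 immediate early genes, Klf2 did (3.82, adjusted p = 0.0125). Both were lower in the members than in other kept cells of P12, and neither Ccnd2 nor Klf2 was called without Coch P12 replicate 2 (adjusted p = 0.159 and 0.0608) or with fewer than 3 stromal markers (0.418 and 0.475). Cdkn1b, a cyclin-dependent kinase inhibitor, had 510 and 97.1 CPM at P12 and 114 to 203 later (0.79, adjusted p = 0.534). None of 10 S to M phase genes, 8 genes of retinoic acid handling or 16 of cholesterol synthesis was called.

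The second comparison set P12 against Coch P33, which had no tamoxifen either, so that age was not mixed with induction. In the same edgeR fit, 3 genes were called (0.0356%), of which 2 were higher at P12 (0.0237% of 8422) and 1 lower (0.0119%), and 646 had an unadjusted p under 0.05. Col2a1 had no UMI in the 31 cells of Coch P33, which makes it at least 72.0-fold higher at P12 against a floor of 3 UMIs (adjusted p = 0.0206). 1500015O10Rik had 3 UMIs in Coch P33, a ratio of P12 to P33 of 96.4 (95% counting interval 32.9 to 468, adjusted p = 0.0473). Dnase1 stood at 416 CPM in Coch P33 and was lower at P12 (-6.77, adjusted p = 0.0206). Klk8, with no UMI in Coch P33, was at least 24.9-fold higher and was not called (adjusted p = 0.0720). Tmprss9 and Ano1 had 1 UMI each in Coch P33, with ratios of 87.8 (15.6 to 3479) and 57.7 (10.2 to 2291), and were not called either (adjusted p = 0.158 and 0.402). In a fit of Coch P12 and Coch P33 alone 1 gene was called, and 0 of the 3 were. Coch P33 was 1 library, assumed to vary like the other groups, and the count of calls ranged from 0 to 18 over the alternatives that kept the filter on low counts.

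The last comparison was of abundance. The members were 4.41% of kept cells in Coch P12 replicate 1 (61 of 1382, exact 95% interval 3.39 to 5.63) and 4.31% in replicate 2 (38 of 881, 3.07 to 5.87). In the later libraries the share was 5.34% in Coch P33, 6.49, 7.21 and 7.80% in Coch + Tmx P26 and 9.36 and 13.4% in Coch + Tmx P33. The difference of the means was -3.90 percentage points (p = 0.0714, two-sided exact permutation test), and 0.0714 is the smallest p that 2 against 6 libraries can give. As a share of cells with at least 2 Epcam UMIs, the P12 values of 33.7 and 31.7% lay within the later range of 30.7 to 46.6%. With each cell thinned to 2000 UMIs the difference was -1.81 points (p = 0.429, exact permutation test). The intervals cover counting error only, and shares of cells also follow the dissection.

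**Figure D4:**
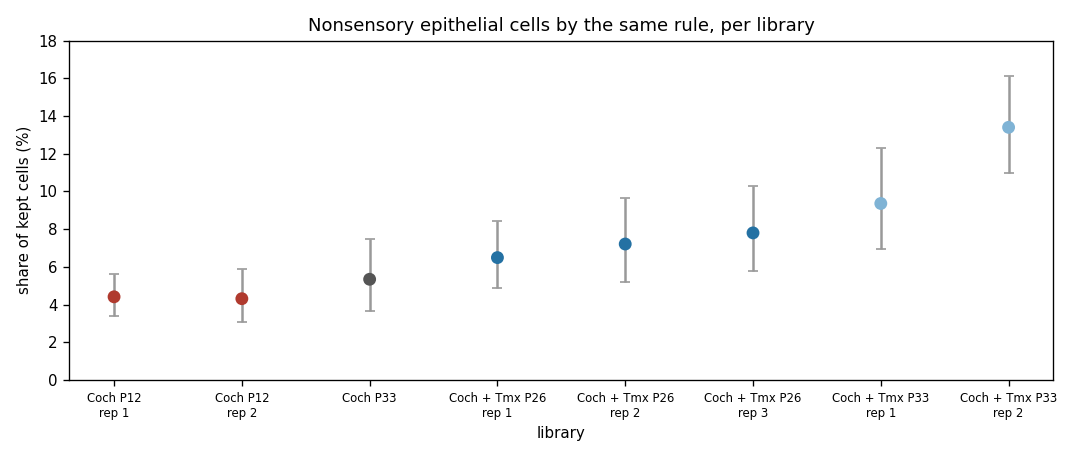
Share of kept cells that met the same rule (vertical, %) in each library (horizontal), with exact 95% binomial intervals. The 2 Coch P12 libraries lie lowest at 4.41 and 4.31%, with intervals that overlap that of Coch P33.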

How the data were processed

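Per the labels, cochleae were dissociated with enzymes and cells were run on the 10x Genomics Chromium Single Cell 3′ v2 chemistry and sequenced on an Illumina HiSeq. The deposited values are raw UMI counts per gene and barcode, made by the authors with Cell Ranger (version not given in the sources used here) on mm10, 27998 genes in each of 8 libraries, to which the cell filters of the published work had not yet been applied. The libraries held 3972800 to 13423524 UMIs. Groups and replicate numbers came from the labels. The members and gene lists were chosen with earlier results of these data known.

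Barcodes with fewer than 500 genes or at least 25% mitochondrial UMIs were dropped. Counts of members were summed per library, and CPM is that sum scaled to the same total in each library. Sums were tested with edgeR 4.0.16 in R 4.3.3 (quasi-likelihood, TMM, filterByExpr, Benjamini-Hochberg adjustment over all genes tested, threshold 0.05) in 1 fit of 4 group means, without the 17 rule genes, and with DESeq2 1.42.0 as an alternative. Differences are log2, P12 minus the mean of the later groups. Members were clustered with scanpy 1.11.5 (Leiden, igraph 0.11.9). The fit was tested on simulated counts with 1 common spread for all genes. It recovered 3 of 100 genes changed 2-fold and 34 of 100 changed 4-fold, with 2 false calls. Most changes of these sizes were thus missed. Doublets were marked with Scrublet and left out only as an alternative. Named genes were the 15 with the largest difference in each direction among called genes without overlap and with at least 50 UMIs, without Rik, Gm, hemoglobin and ribosomal genes, plus list members with the most UMIs. Gene coordinates are from RefSeq's GRCm38.p6, the build of mm10, which covered 8043 of 8422 genes. Alternatives changed scaling, filters, the rule's limits, depth and libraries. Some genes of the lists are not reported here.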

Additional observations from a re-analysis of the deposited data

How the results depend on the processing

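Against the later libraries, the 115 calls were 116 with DESeq2's size factor scaling in edgeR (RLE) and 125 in DESeq2 itself (82 higher and 43 lower, against 95 and 20). They were 120 under 10% mitochondrial UMIs, 126 without doublets and 132 with fewer than 2 supporting and Reissner genes. The count moved to 633 without the filter on low counts, 251 with 1 Epcam UMI, 66 with 3, 39 with fewer than 3 stromal markers, 41 with at most 1 stromal marker other than Lum and 39 of 2559 genes after thinning to 2000 UMIs. Leaving out 1 library gave 23 to 293. Against Coch P33, the 3 calls were 18 in DESeq2, 182 without the filter, 1 with 1 Epcam UMI, 1 with 3 and 1 under 10% mitochondrial UMIs. With the uninduced libraries alone 1 gene was called, which was not among the 3. With fewer than 2 supporting and Reissner genes edgeR made 0 (458 at an unadjusted p under 0.05), and leaving out 1 library gave 0 (without Coch + Tmx P26 replicate 2, 603 at an unadjusted p under 0.05) to 17. No value was possible without Coch P33 itself. The cause of these moves was not tested. With a replicate block, 149 genes were called (108 higher, 41 lower, 96 of them among the 115), and the deviations of same-numbered libraries correlated at -0.0694 to 0.17, so the numbers do not pair the libraries. The difference in share kept its sign, from -1.34 to -5.54 points. The 48 named genes followed kept their direction in every alternative that tested them. With 31 to 96 member cells per library, genes of low level could not be tested, and a gene that was not called is not shown to be equal between ages.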

Other observations

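The 2 Coch P12 libraries differed from each other in a group of genes, given here as values without a test, since each is 1 library, and chosen after they were seen. Ucma, a secreted cartilage matrix protein that led cluster 3, stood at 215 CPM in the members of replicate 1 and 3161 in those of replicate 2, and at 22.5 and 2352 CPM in the supporting-marker cells. Bmp4, a secreted signal of the lateral cochlear duct, stood at 38.1 and 335 CPM in the members and 5.63 and 187 in the supporting-marker cells. Epyc was at 2325 and 7115 CPM in the supporting-marker cells and 7684 and 8309 in the members. Fxyd6, a regulator of the sodium pump, stood at 392 and 1082 CPM in the members and 101 and 689 in the supporting-marker cells. Cdkn1b went the other way, at 510 and 97.1 CPM in the members and 532 and 219 in the supporting-marker cells. In the members of the later libraries Ucma ranged from 92.5 to 609 CPM, so replicate 2 of P12 lay above all of them. The members of both replicates lay in all 4 clusters, but in different proportions. Cluster 3 held 8.20% of the members of replicate 1 and 23.7% of those of replicate 2, and cluster 2 held 44.3% and 21.1%. Cluster 1 was nearly level at 37.7% and 39.5%, and cluster 4 held 9.84% and 15.8%. Ucma (7290 CPM), Bmp4 (596) and Fxyd6 (2367) were all highest in cluster 3, and Cdkn1b had 465 and 485 CPM in clusters 1 and 2 and 153 in cluster 3.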
